A study of Mus musculus with 4 samples.

Results

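The regions described here had called ATAC-seq peaks in cells of a single Jmjd1a genotype at both ends of differentiation. The peaks of the 4 ATAC-seq libraries on chromosomes 1 to 19 were merged wherever they shared at least 1 bp, which gave 98469 regions. Regions with a peak in both HY libraries and in neither WT library numbered 885, and regions with a peak in both WT libraries and in neither HY library numbered 293. Members were thus selected on the presence and absence of called peaks. They are called HY-restricted and WT-restricted, and together they are 1178 of the 98469 merged regions.

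ATAC-seq marks open chromatin by the places where the Tn5 transposase can insert adapters. It was applied to im-scWAT cells, stromal vascular cells of mouse subcutaneous white fat that were immortalised with SV40 large T antigen. WT cells came from Jmjd1a+/+ mice, and HY cells came from Jmjd1a HY/HY mice, in which genome editing changed a catalytic histidine of the enzyme to tyrosine (H1122Y). Nuclei were taken at day 0 (D0), when the cells were confluent preadipocytes, and at day 8 (D8), after induction with indomethacin, dexamethasone, IBMX, rosiglitazone, insulin and T3 and further culture in insulin, T3 and rosiglitazone. Each of the 4 groups (WT D0, WT D8, HY D0 and HY D8) was 1 library, so every difference below is between libraries, and genotype cannot be told apart from the culture that carried it.

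JMJD1A, encoded by Kdm3a, is a demethylase that removes methyl groups from lysine 9 of histone H3, a mark of silent chromatin. Heterochromatin proteins bind this mark, and its removal accompanies the expression of thermogenic genes in beige fat cells. AP-1 and C/EBP factors bind much of the open chromatin of preadipocytes, and C/EBPα and C/EBPβ also drive fat cell differentiation.

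The sequences around the summits of some strong members are printed as examples, from repeated DNA to introns and an imprinted promoter. They do not stand for the classes as a whole. Each is 121 bases of the mm9 plus strand, 60 on either side of the summit, with matches to the searched motifs in capitals. The first, chr15:5791921-5792041, was the HY-restricted region with the highest −log10 q on its weaker day, and the 24-base words around its summit had a median of 118 copies in the genome. The second, chr5:132805234-132805354, lies in an intron of Auts2, occurs once in the genome and holds matches to the C/EBP and RUNX motifs. The third, chr16:42380810-42380930, lies 40106 bp upstream of Gap43 and holds no match to any of the 13 motifs.
HY-restricted, repeated: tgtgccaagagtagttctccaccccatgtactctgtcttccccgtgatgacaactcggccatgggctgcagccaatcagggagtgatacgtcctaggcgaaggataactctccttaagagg
HY-restricted, Auts2 intron: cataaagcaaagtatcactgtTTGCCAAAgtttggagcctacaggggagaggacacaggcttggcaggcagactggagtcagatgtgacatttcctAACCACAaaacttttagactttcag
HY-restricted, upstream of Gap43: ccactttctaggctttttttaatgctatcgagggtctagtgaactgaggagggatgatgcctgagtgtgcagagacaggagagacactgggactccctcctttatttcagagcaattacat

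For the WT-restricted class, the strongest region by the same order is chr2:72876505-72876625, an intergenic site whose nearest annotated start belongs to AL844840.2. An intron of Pde4d, which encodes a cAMP phosphodiesterase, gives chr13:110549529-110549649 with a match to the glucocorticoid receptor (GR) motif. The promoter of Nespas, the imprinted antisense transcript of the Gnas locus, gives chr2:174120954-174121074 with a match to the CTCF motif.
WT-restricted, intergenic: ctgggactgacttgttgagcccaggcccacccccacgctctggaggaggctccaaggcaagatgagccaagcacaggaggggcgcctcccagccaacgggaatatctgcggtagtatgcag
WT-restricted, Pde4d intron: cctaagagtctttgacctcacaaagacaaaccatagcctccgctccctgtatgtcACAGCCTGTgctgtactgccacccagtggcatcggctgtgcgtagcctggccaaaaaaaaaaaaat
WT-restricted, Nespas promoter: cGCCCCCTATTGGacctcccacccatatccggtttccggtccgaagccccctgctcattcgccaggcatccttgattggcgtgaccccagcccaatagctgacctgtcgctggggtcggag

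The peak lists were of unequal length, with 71523 peaks at D0 and 41228 at D8 in WT, and 77994 and 48964 in HY. The relative depth, taken from the lowest local background in each list, was 0.6588, 0.5308, 0.7076 and 0.4941 in that order, which puts HY 1.074 times as deep as WT at D0 and 0.9309 times at D8. The promoter of Kdm3a itself carried a peak in every library, with summit pileups (the reads overlapping at the summit) of 67 and 53 in WT and 84 and 60 in HY at D0 and D8, and its nearest HY-restricted and WT-restricted regions lay 728 kb and 969 kb away. Promoter peaks were found at 3 of 6 adipocyte markers in both D0 libraries and at 6 of 6 in both D8 libraries. For 8 preadipocyte markers the counts were 7 in WT D0, 4 in HY D0 and 2 in each D8 library. Macrophage, skeletal muscle and mesothelial markers had no promoter peak in any library, while of 4 endothelial markers 3 had one in WT D0, 2 in HY D0, 1 in HY D8 and 0 in WT D8. Of 3 Schwann cell markers 1 had a promoter peak in every library, and of 5 beige markers 1 in WT D0, 2 in HY D0 and 3 in both D8 libraries.

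Restriction to a single genotype on both days was rare. HY-restricted regions made up 0.899% of all merged regions and WT-restricted regions 0.298%. Of the 32265 regions open on both days in HY, 2.74% had no WT peak, and of the 26752 open on both days in WT, 1.10% had no HY peak. Regions called in all 4 libraries numbered 23856, and those called in both D0 libraries alone numbered 24254. Regions of a single library were more frequent than either restricted class, with 16510 regions called in HY D0 alone, 8845 in WT D0 alone, 4898 in HY D8 alone and 2174 in WT D8 alone. The selection defined both classes, so these shares describe them and were not tested.

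**Figure D1:**
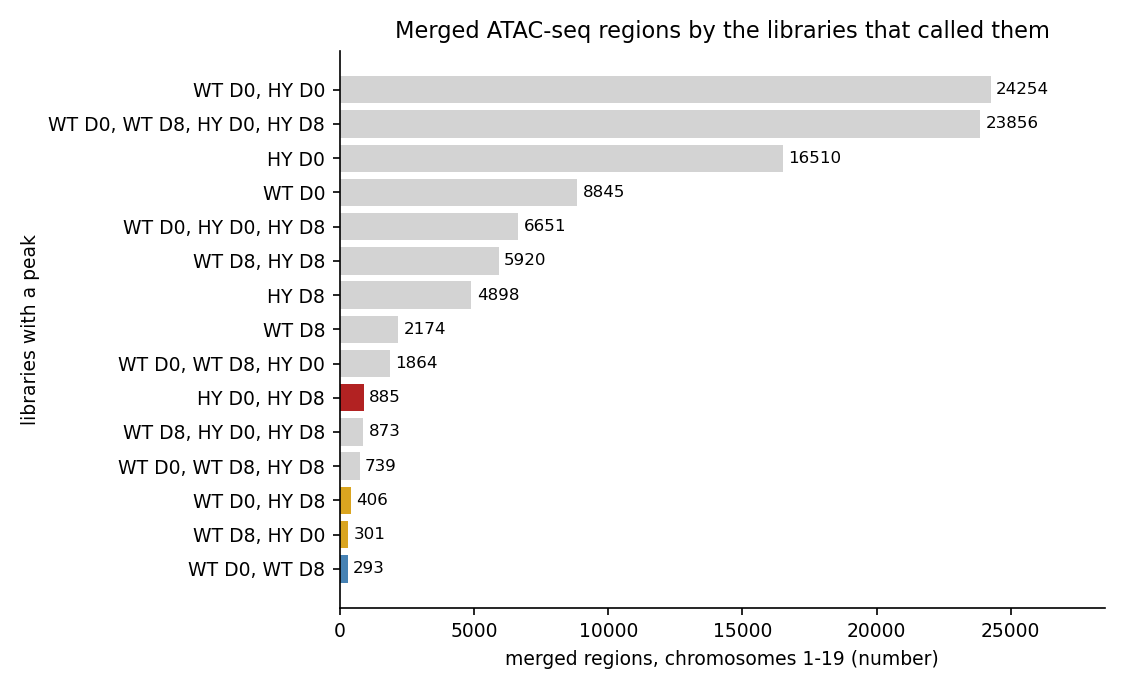
Number of merged regions on chromosomes 1 to 19 (x axis) for each combination of libraries with a peak (y axis), with HY-restricted in red, WT-restricted in blue and the crossed pairs in yellow. The 885 HY-restricted and 293 WT-restricted regions are small beside the 23856 regions called in all 4 libraries.

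The same rule applied across genotypes gives a level to read these numbers against. Regions open in WT D0 and HY D8 alone numbered 406, and regions open in HY D0 and WT D8 alone numbered 301; these crossed pairs share neither genotype nor day. The 1178 pairs of the same genotype were thus 1.67 times the 707 crossed pairs. HY-restricted regions were more frequent than either crossed pair, and WT-restricted regions were fewer than both. Both D0 lists and both HY lists enter several of these counts, and list length moves with them. When every list was shortened to its 41228 strongest peaks, 546 HY-restricted and 496 WT-restricted regions were found, so the HY over WT ratio went from 3.02 to 1.10. Only 101 of the 885 and 60 of the 293 regions were still restricted in the shortened lists. The HY excess was thus present in the lists as deposited and nearly absent at equal length.

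Members of both classes were weak peaks. The median summit pileup of HY-restricted regions was 10 in HY D0 (range 5 to 60) and 7 in HY D8 (4 to 81). That of WT-restricted regions was 10 in WT D0 (5 to 33) and 8 in WT D8 (5 to 36). In regions called in all 4 libraries the medians at D0 and D8 were 29 and 18 in WT and 33 and 20 in HY. Pileup was 10 or less on both days in 442 HY-restricted regions (49.9%) and in 125 WT-restricted regions (42.7%). It was at least 20 on both days in 15 HY-restricted and 4 WT-restricted regions. Since the lowest pileup of any called peak was 4 or 5, a missing peak means that the site stayed below the calling threshold in that library, not that it was closed. Members were also narrow, with median widths of 210 bp for HY-restricted and 201 bp for WT-restricted regions against 669 bp for regions called in all 4 libraries.

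**Figure D2:**
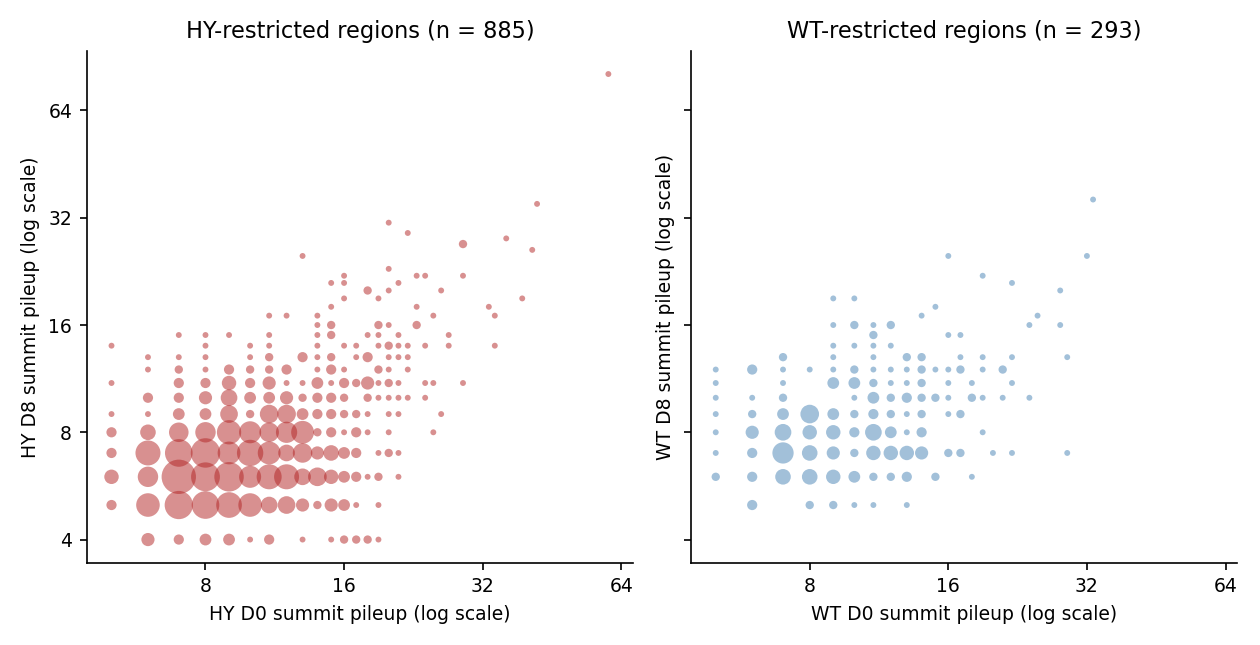
Summit pileup at D0 (x axis, log scale) against D8 (y axis, log scale) for the 885 HY-restricted regions in the HY libraries and the 293 WT-restricted regions in the WT libraries; dot area is proportional to the number of regions. The medians are 10 at D0 and 7 at D8 for HY-restricted and 10 and 8 for WT-restricted regions, and few regions of either class reach 20 on both days.

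The share of restricted regions fell with strength in both genotypes. Strength is given as the −log10 q of the weaker day, and intervals are 95% Wilson intervals that cover counting error only. Among regions open on both days in HY, 12.8% (10.2 to 15.9) were restricted at a −log10 q under 2, 8.16% (7.27 to 9.13) between 3 and 4, and 2.26% (1.85 to 2.76) between 5 and 7. Between 10 and 20, 3 of 7094 were restricted, and at 20 or more 1 of 7124 was. In WT the shares were 11.1% (7.05 to 17.1) under 2, 4.49% (3.70 to 5.45) between 3 and 4, and 1.13% (0.852 to 1.49) between 5 and 7. Between 10 and 20, 1 of 6648 was restricted, and at 20 or more 0 of 6248 were, which allows a share of up to 0.0614%. These shares come from the calls that chose the members and from lists of unequal length, so they describe the libraries and test nothing.

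**Figure D3:**
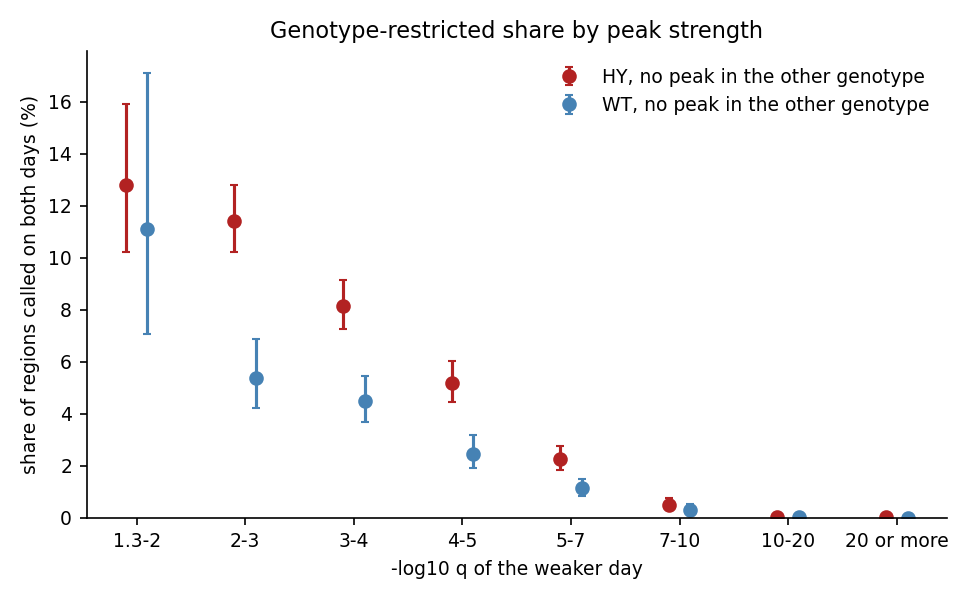
Share of regions called on both days in a genotype that had no peak in the other genotype (y axis, %), by the −log10 q of the weaker day (x axis), with HY in red, WT in blue and 95% Wilson intervals as bars. The share falls from 12.8% to 0.0140% in HY and from 11.1% to 0% in WT.

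At a −log10 q of at least 5 on both days, 121 HY-restricted (13.7%) and 61 WT-restricted regions (20.8%) remained, beside 54 and 40 regions of the crossed pairs. At 7 or more the numbers were 27 and 13 beside 10 and 4. At 10 or more they were 4 and 1, and both crossed pairs had 0. WT-restricted regions thus had the larger share at 5 or more, although there were fewer of them. Regions under 5 were also rarer in WT among all regions open on both days. Of 32265 in HY, 530 lay under 2, 2260 from 2 to 3, 3323 from 3 to 4 and 3219 from 4 to 5. Of 26752 in WT, 153, 1133, 2159 and 2306 lay in these bins. The same calls chose the members, and the difference was not tested.

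Opening was similar on both days within each class. The D8 over D0 ratio of depth-scaled pileup had a median log2 of 0.03 in HY-restricted and 0.09 in WT-restricted regions, against −0.08 (HY) and −0.16 (WT) in regions called in all 4 libraries. The scaled pileup was higher at D8 in 490 HY-restricted regions (55.4%) and in 160 WT-restricted regions (54.6%). It was at least 2-fold higher at D8 in 36 and 14 regions and at least 2-fold lower in 27 and 7. The rule asks for a peak on both days, so large changes could enter either class only where the weaker day still passed the calling threshold.

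Many members had a peak of the other genotype nearby. The median distance to it was 4947 bp for HY-restricted and 2348 bp for WT-restricted regions. It was within 1000 bp in 248 HY-restricted regions (28.0%) and in 103 WT-restricted regions (35.2%), and the nearest lay at 3 and 6 bp. Just outside the rule, 28 of 31380 regions open on both days in HY overlapped the WT peaks by under 50 bp, and 5 of 26459 regions open on both days in WT overlapped the HY peaks by under 50 bp. The smallest of these overlaps were 3 and 18 bp.

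HY-restricted and WT-restricted regions lay in similar parts of the genome. A promoter is taken as the stretch from 1000 bp before an annotated start to 100 bp after it. Promoters held the summit of 102 HY-restricted regions (11.5%, 9.59 to 13.8) and 34 WT-restricted regions (11.6%, 8.42 to 15.8), a difference of −0.0787 percentage points (−4.68 to 3.83). Introns held 43.3% and 45.7%, exons 5.88% and 4.44%, and sequence between genes 39.3% and 38.2%. Regions called in all 4 libraries were at promoters far more often (42.9%), and all merged regions somewhat more often (15.8%). Median GC content was 50.7% in HY-restricted and 51.7% in WT-restricted regions, against 57.2% in regions called in all 4 libraries. When a library counted as present only where its peaks covered at least 50% of the region, promoters held 17.2% of HY-restricted and 11.9% of WT-restricted regions, a difference of 5.28 points (0.806 to 9.12). In lists of equal length the difference was −4.02 points (−8.02 to −0.0894), so its sign depended on the definition of the classes.

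The motifs of AP-1 and C/EBP differed in frequency between the classes. A match to TGANTCA, the AP-1 motif, lay within 100 bp of the summit in 160 HY-restricted regions (18.1%, 15.7 to 20.8) and in 35 WT-restricted regions (11.9%, 8.72 to 16.2), a difference of 6.13 points (1.29 to 10.3). TTGCNNAA, a C/EBP motif, went the other way, with 98 HY-restricted regions (11.1%, 9.17 to 13.3) and 50 WT-restricted regions (17.1%, 13.2 to 21.8), a difference of −5.99 points (−11.1 to −1.52). Motifs were searched on both strands, and among all merged regions 22% held the AP-1 motif and 11.4% the C/EBP motif. Of 19 features compared between the classes, these were the 2 whose interval excluded 0, and the intervals were not adjusted for the number compared. In the crossed pairs AP-1 was at 11.6% for WT D0 with HY D8 and at 15.9% for HY D0 with WT D8, and C/EBP was at 14% and 10.3%. AP-1 in HY-restricted regions was 6.5 points (2.28 to 10.3) above the first of these and 2.13 points (−3.02 to 6.70) above the second. For C/EBP the differences from the same pairs were −2.97 points (−7.14 to 0.811) and 0.774 points (−3.61 to 4.48), and both intervals included 0.

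The shares were also read in bins of strength, of which the top bin is open and holds far stronger shared regions than restricted ones. Under a −log10 q of 3 on the weaker day, AP-1 was at 15.6% (51 of 326) of HY-restricted regions and 24.5% (22.9 to 26.3) of regions of that strength that WT shared. Between 3 and 5 the shares were 18.7% (15.3 to 22.6) and 24.3% (23.3 to 25.4), and at 5 or more they were 22.3% (15.8 to 30.5) and 16.7% (16.2 to 17.2). In WT, C/EBP was at 19.2% (12 to 29.3), 15.6% (10.7 to 22.1) and 18% (10.4 to 29.5) of restricted regions in these bins, against 11.3%, 11.6% and 9.22% of those that HY shared. Each motif leaned the same way in the other class in part of the bins. AP-1 was at 10.3%, 12.3% and 13.1% of WT-restricted regions against 18.5%, 20.9% and 14.7% of shared ones, and C/EBP was at 11.3%, 9.59% and 15.7% of HY-restricted regions against 12.1%, 11.2% and 9.06%. Promoter shares of restricted and shared regions were 13.8% and 11.4% under 3 and 9.82% and 12.4% between 3 and 5 in HY, and 14.1% and 14.8%, then 9.74% and 15.2%, in WT. At 5 or more they were 11.6% against 43.6% in HY and 13.1% against 46.4% in WT. The class difference varied between settings. In lists of equal length it was 10.8 points for AP-1 (6.00 to 15.5) and −7.34 points for C/EBP (−11.4 to −3.34), and with only peaks at a −log10 q of at least 5 in all lists it was 7.12 and −5.60 points. Within 50 bp of the summit it was 3.68 points for AP-1 (−0.461 to 7.10) and 0.410 points for C/EBP (−3.25 to 3.29), which turns the C/EBP sign, and among members at a −log10 q of at least 5 both intervals included 0. The AP-1 interval also included 0 with at least 50% coverage (−0.722 to 7.68) and without a peak of the other genotype within 1000 bp (−1.24 to 10.6).

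For the other motifs the interval of the difference between the classes included 0 in the lists as deposited. With only peaks at a −log10 q of at least 5 in all lists, the E-box was at 20.4% of HY-restricted and 12.7% of WT-restricted regions. In that order EBF was at 7.40% and 3.37%, GR at 4.34% and 8.61%, RUNX at 5.36% and 5.62% and SP/KLF at 18.1% and 16.5%. CTCF was at 1.53% and 1.87% there, and ETS at 1.28% and 2.25%. The order of the classes thus turned for EBF, GR, RUNX, SP/KLF, CTCF and ETS. In the lists as deposited, shares were as follows. The E-box CAGCTG was found in 15.6% of HY-restricted and 13.7% of WT-restricted regions, and GGGCGG, bound by SP and KLF factors, in 12.7% and 15.4%. GR (ACANNNTGT) was at 6.55% and 6.14%, EBF (CCCNNGGGA) at 5.76% and 6.48%, TEAD (CATTCCA) at 5.20% and 5.46%, and RUNX (TGTGGTT) at 4.75% and 2.39%. CTCF was at 2.37% and 1.02%, and ETS (CCGGAAG) at 1.47% and 0.683%. The ETS and SP/KLF motifs were more frequent in regions called in all 4 libraries, at 8.32% and 35.9%. The long consensus strings of NFI, PPARG:RXR and NRF1 had no exact match in any member, and all merged regions held them in 0.0406%, 0.0284% and 0.219%.

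**Figure D4:**
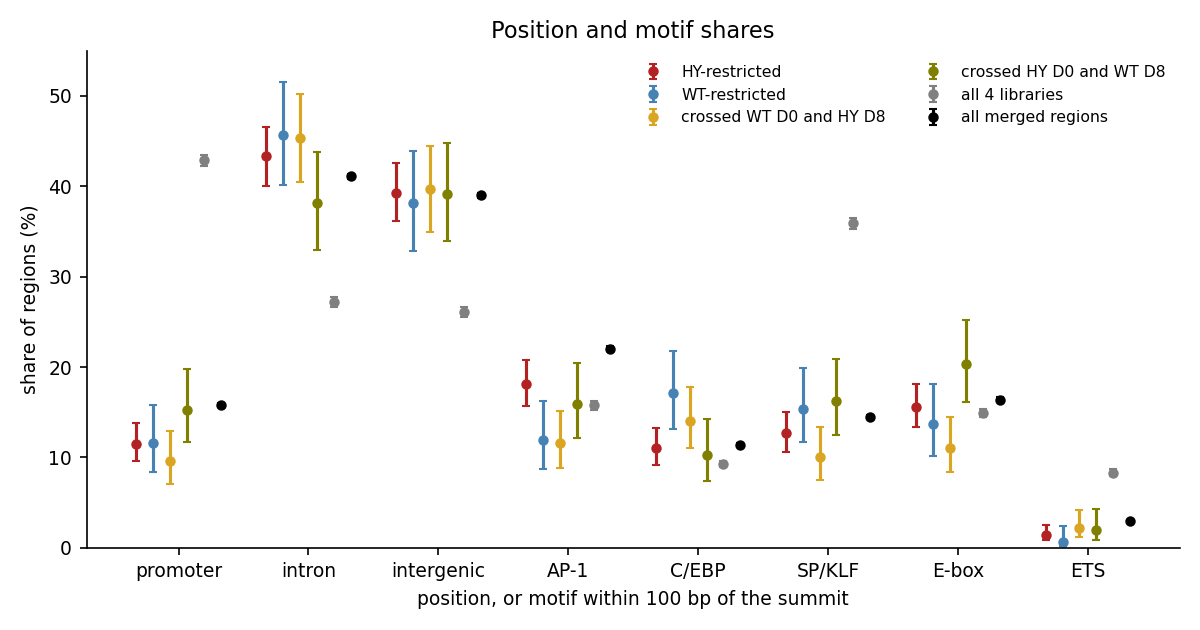
Share of regions (y axis, %) at promoters, in introns or between genes, or with a motif within 100 bp of the summit (x axis), for both restricted classes, the crossed pairs, regions called in all 4 libraries and all merged regions, with 95% Wilson intervals as bars. HY-restricted and WT-restricted regions have nearly the same promoter share, 11.5% and 11.6%, against 42.9% in regions called in all 4 libraries, which are stronger peaks.

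Repeated sequence made up a small part of both classes. The summit area had more than 1 median copy of its 24-base words in 47 HY-restricted regions (5.31%, 4.02 to 6.99) and 14 WT-restricted regions (4.78%, 2.87 to 7.86), against 3.71% of all merged regions. It was frequent at the top of the HY list. The strongest HY-restricted region, chr15:5791819-5792306, lay between genes, 457807 bp upstream of Dab2. Its pileup was 24 in HY D0 and 22 in HY D8. A region 20659 bp upstream of Pla2g12b had pileups of 19 and 14 and a median of 306 copies. A region 10178 bp downstream of the start of Fbxo48, an F-box gene, had 12 and 12 and a median of 1132 copies. The peak lists do not show from which copy the reads of these 3 peaks came.

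Single-copy members at the top of the HY list lay at genes with varied roles. In the Auts2 intron, chr5:132805027-132805684, pileup was 16 in HY D0 and 22 in HY D8, with no WT peak within 253954 bp. Auts2 encodes a partner of a Polycomb complex that can activate transcription in neurons. Upstream of Gap43, which encodes a growth-associated protein of axons, pileup was 18 and 11. A region in an intron of Mnd1, a meiotic recombination gene, and another in an intron of Pcdhgc5, a clustered protocadherin, each had 12 and 10. Local background at these 4 sites was 0.494 to 0.819, the highest in HY D8 at the Auts2 intron.

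The Cebpa locus held a HY-restricted region beside a promoter open in every library. Cebpa encodes C/EBPα, which maintains the fat cell programme. Its promoter had pileups at D0 and D8 of 61 and 57 in WT and of 55 and 61 in HY. The restricted region lay 8016 bp downstream, at chr7:35912275-35912404, with 13 in HY D0 and 25 in HY D8, while local background there went from 0.855 to 4.25 and the fold over it from 7.55 to 4.95. A further site 22329 bp downstream was called in all libraries, with 12 and 11 in WT and 5 and 19 in HY. These pileups are not scaled for depth, and WT has no value at the restricted site.

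Restricted promoters in HY belonged to genes with varied roles. By weaker-day −log10 q the first 8 were C330013J21Rik (33 in HY D0 and 18 in HY D8), Auts2 (12 and 17), Kctd1 (18 and 13), Mei4 (15 and 10), Pde5a (19 and 15), Kcnh3 (21 and 14), Pde11a (10 and 10) and Tex15 (9 and 11). Mei4 acts in meiotic break formation and Tex15 in spermatogenesis, Pde5a and Pde11a encode phosphodiesterases, and Kcnh3 encodes a potassium channel. The summit words of the C330013J21Rik promoter had a median of 6 copies in the genome. The sites at Kctd1, Pde5a and Kcnh3 lay 195, 215 and 468 bp from a WT peak, so there only a part of the promoter was restricted. Those at Mei4, Pde11a, Auts2 and Tex15 lay 237321, 30733, 467937 and 8608 bp from the nearest WT peak.

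Strong WT-restricted regions lay largely in introns and between genes. The region nearest AL844840.2 had pileups of 22 in WT D0 and 21 in WT D8, with a HY peak 512 bp away. A region between genes, 276163 bp upstream of Cdyl, had 14 and 12, and one nearest AL627205.1 had 15 and 18 with a HY peak 687 bp away. An intron of Ppp2r2b, a regulatory subunit of protein phosphatase 2A, had 21 and 12, and the Pde4d intron had 11 and 11. An exon of Ssr3, a subunit of the translocon-associated protein complex, had 11 and 13, with a HY peak 221 bp away. An intron of Khdrbs1, an RNA-binding protein gene, had 13 and 10. A site between genes, 243136 bp from the start of the pigmentation gene Oca2, had 18 and 10, and the nearest HY peak lay 402584 bp away.

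At Gnas, which encodes the stimulatory G protein that couples β-adrenergic receptors to cAMP, the Nespas promoter was the WT-restricted site. At chr2:174120870-174121133 pileup was 14 in WT D0 and 13 in WT D8, and the nearest HY peak lay 10358 bp away. The Gnas start 8 bp from a summit had 28 and 24 in WT and 36 and 32 in HY at D0 and D8. Of the 10 regions listed in the locus, this was the single one with WT peaks alone, 3 were called in all 4 libraries and 6 in a single HY library.

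Of the 34 restricted promoters in WT, the first 8 by weaker-day −log10 q were Nespas, Oas1g (10 in WT D0 and 11 in WT D8), Pdss2 (17 and 15), Gm13644 (19 and 13), Gm11791 (10 and 9), Sri (15 and 12), Itga7 (10 and 19) and Zbtb38 (9 and 12). Oas1g belongs to the antiviral oligoadenylate synthetases, a family of near-identical copies, and its summit words had 2 copies in the genome. Pdss2 acts in coenzyme Q synthesis, Sri encodes the calcium-binding protein sorcin, Itga7 a laminin receptor and Zbtb38 a zinc finger protein that binds methylated DNA. At Sri, Pdss2 and Zbtb38 a HY peak lay 111, 233 and 439 bp away.

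Genes of 14 lists, from fat cell biology to other tissues, were looked up around the restricted regions. Of the 222 listed genes, 17 (7.66%) had a HY-restricted region within 50 kb of a start and 5 (2.25%) a WT-restricted region, against 6.95% and 2.34% of 21281 protein-coding genes. Among 20 thermogenic genes, HY-restricted regions lay near 2 (Cox7a1 and Slc27a2) and WT-restricted regions near 0. Among 20 adipocyte genes they lay near 2 (Cebpa and Lipe) and 1 (Cebpb), and among 19 preadipocyte genes near 2 (Pdgfrb and Klf2) and 1 (Gata3). Of 18 genes of H3K9 methylation, Setdb2, a methyltransferase, and Cbx5, which encodes HP1α, were near HY-restricted regions, and Jmjd1c, a relative of Kdm3a, was near a WT-restricted one. The Hox and patterning list reached 5 of 20 for HY and 0 for WT, but all 5 were neighbours in the Hoxc cluster (Hoxc4, Hoxc6, Hoxc8, Hoxc9 and Hoxc10) and shared members, and each crossed pair also reached 5 of 20. Liver genes, which these cells should not use, gave 2 of 19 for HY and 0 for WT, and the neuron list gave 1 of 19 and 0. Macrophage genes gave 1 of 10 (Csf1r) for HY and 0 for WT, and skeletal muscle genes 0 for HY and 1 of 10 (Pax3) for WT. The endothelial, Schwann and mesothelial lists gave 0 for both, and the cell cycle and p53 list gave 0 of 20 for both.

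Within 10 kb, 6 of the 222 listed genes (2.70%) had a HY-restricted region and 4 (1.80%) a WT-restricted one, against 2.03% and 0.695% of protein-coding genes. For HY they were Cox7a1, a cytochrome oxidase subunit of oxidative tissue (14 in HY D0 and 7 in HY D8), Cebpa, Lipe, the hormone-sensitive lipase (6 and 5), Klf2, a repressor of fat cell formation (11 and 7), and Hoxc6 and Hoxc8, which share 1 region (39 and 19). For WT they were Cebpb, an early driver of differentiation (19 in WT D0 and 22 in WT D8), Gata3, which holds preadipocytes back (13 and 7), Gnas, and Pax3, a factor of muscle and neural crest (9 and 5). The Hoxc6 and Cebpb sites stood on high local background, with folds of 2.92 and 3.26 and of 3.35 and 3.15 on the 2 days, and lay 179 and 375 bp from a peak of the other genotype. The Pax3 site lay 151 bp from one, while the sites at Cox7a1, Lipe, Klf2, Cebpa, Gata3 and Gnas lay between 2157 and 10358 bp away.

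Chromosome 12 stood apart from the other chromosomes. It held 24 HY-restricted and 22 WT-restricted regions of 3885, so HY made up 52.2% of its members against 65.5% to 83.8% on the other chromosomes and 75.1% over all. Its WT-restricted share was 0.566%, the highest, with the next at 0.397% on chromosome 9. HY-restricted shares were highest on chromosomes 14 (1.26%) and 10 (1.24%) and lowest on chromosomes 19 (0.583%) and 12 (0.618%). The lowest WT-restricted shares were 0.215% on chromosome 19 and 0.230% on chromosomes 1 and 15.

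Chromosomes 12, 14 and 15 also stood apart in regions that all 4 libraries shared. There the median log2 of HY over WT depth-scaled pileup was −0.16 at D0 and −0.07 at D8 on chromosome 12, 0.19 and 0.31 on chromosome 14, and 0.15 and 0.27 on chromosome 15. The other 16 autosomes lay between 0.03 and 0.11 at D0 and between 0.10 and 0.21 at D8, chromosomes 9, 10 and 19 among them. The part of this ratio in the restricted shares was not tested. Across the 19 chromosomes, which come from the same libraries, the HY percentage of members and this ratio at D8 had Pearson r 0.843 and Spearman rho 0.649. Without chromosomes 12, 14 and 15 they were 0.468 and 0.413, and at D0 Pearson r went from 0.773 to −0.179, so the relation rested largely on these chromosomes. For the HY-restricted share itself, Pearson r and Spearman rho were 0.566 and 0.371 at D0 and 0.680 and 0.615 at D8, and without these chromosomes 0.110 and −0.00884 at D0 and 0.386 and 0.387 at D8. For the WT-restricted share they were −0.665 and −0.0167 at D0 and −0.680 and −0.372 at D8, and without these chromosomes 0.352 and 0.396 at D0 and −0.187 and −0.149 at D8. Leaving out these 3 chromosomes kept the ratio of HY-restricted to WT-restricted regions at 3.02 (753 and 249).

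**Figure D5:**
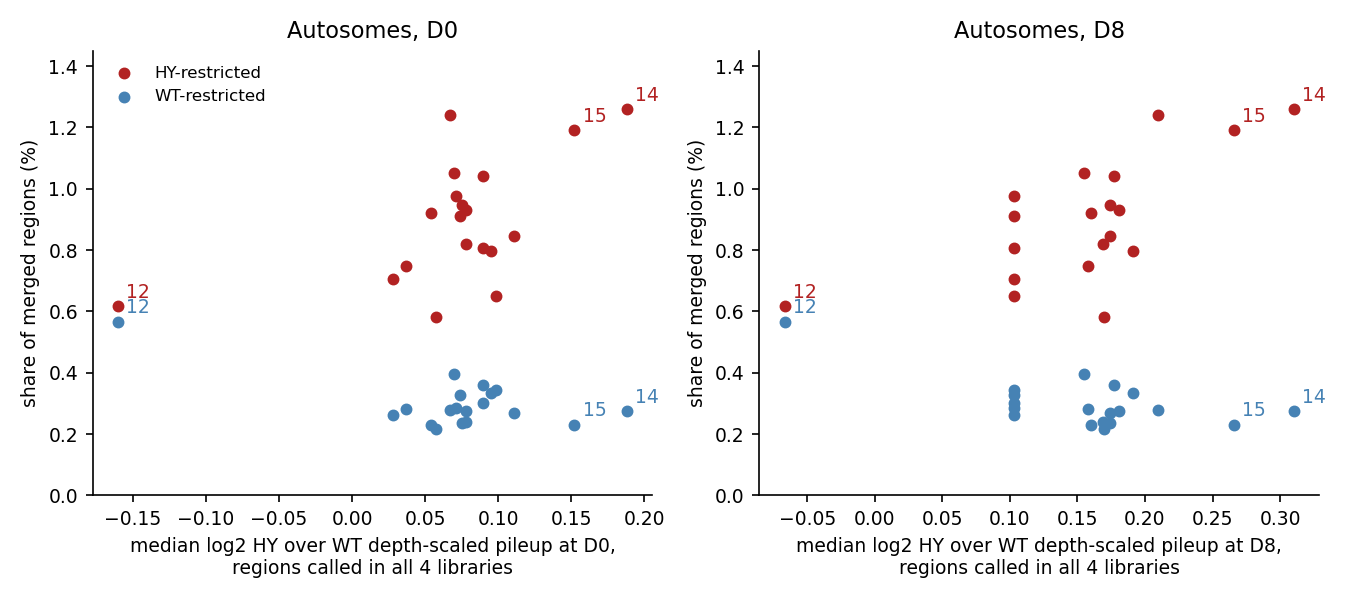
Share of merged regions that were HY-restricted (red) or WT-restricted (blue) on each autosome (y axis, %) against the median log2 of HY over WT depth-scaled pileup in regions called in all 4 libraries (x axis), at D0 and at D8. Chromosome 12 lies alone at the left with 0.618% and 0.566%, and chromosomes 14 and 15 lie at the right.

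Members were scattered, with few clusters. Of 2269 windows of 1 Mb, 480 held 1 HY-restricted region, 138 held 2, and 38 held 3 or more; WT-restricted regions came singly in 243 windows and reached 2 or more in 23. All windows together held the 98469 merged regions, and the fullest windows were dense in them. For HY, chr11:68000001-69000000 had 6 members among 128 merged regions. Of these members 3 lay in Ntn1, which encodes the guidance factor netrin 1, and 2 in the myosin gene Myh10. The window chr7:108000001-109000000 had 5 among 92, at Arhgef17, P2ry2 and Clpb. In chr17:26000001-27000000 there were 5 among 115, at Rab40c, Rab11fip3 and Axin1 among others. The fullest WT window was chr12:71000001-72000000 with 5 members among 85 merged regions. They lay at Sav1, Nin and Frmd6, on the chromosome that stood apart above. Auts2, Ntn1 and Rora, a nuclear receptor gene, each had 3 HY-restricted regions within them. No gene had more than 2 WT-restricted regions within it. All merged regions were counted for Auts2 alone, so the counts in Ntn1 and Rora have no such total beside them.

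Auts2 held 2 of the 10 strongest HY-restricted regions and few WT peaks. Of 36 regions in the gene, 24 had HY peaks alone, 1 had a WT peak alone and 11 had both; the 24 include the 3 members, and the gene is described because it held them. Of all merged regions, 22.6% had HY peaks alone and 11.5% had WT peaks alone. The 3 members were the promoter (12 and 17 in HY at D0 and D8), the intron above (16 and 22) and a second site within the gene (7 and 12). A further 8 regions were called in HY D0 alone and 13 in HY D8 alone, including a site with a pileup of 17. A run of 13 consecutive regions without a WT peak covered chr5:132584334-133021929 (438 kb). The such run with the most regions, at Pcdh9 on chromosome 14, held 18 over 1921 kb but 1 member. Others held 11 regions at Fam135b (over 2375 kb) and at Kcnq5. Among runs without a HY peak, the one with the most regions held 6, at Myo18b. Fam135b lies on chromosome 15; the median HY over WT pileup of both chromosomes 14 and 15 is given above, and its part in these runs was not tested.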

How the data were processed

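Peak lists of 4 ATAC-seq libraries were analysed. The authors trimmed reads, aligned them to mm9 with Bowtie2, removed duplicates (SAMtools, Picard) and called peaks per library. MACS3 is named for the study's ChIP-seq, which followed the same procedure. Versions and any Tn5 shift were not given in the sources used here. The deposited values were the fold over local background (a ratio), −log10 p, −log10 q and a score made from q, which was not used. The lowest −log10 q values, 1.304 to 1.323, fit a calling limit of 0.05. Pileup and background were solved from fold and −log10 p, with a solution within 0.002 for 100.0% of peaks, as no read counts were used; the absolute depth is unknown.

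Peaks were merged with BEDTools 2.31.1 at 1 bp. Genes and sequences came from NCBIM37 (mm9) and GENCODE vM1 (Python 3.11.15, pysam 0.24.0), and summits were placed by the strongest peak of a region. Scripts were tested on simulated data. With 1 library per group, no test between genotypes was run. Shares have 95% Wilson intervals, and differences combine them by Newcombe's method; regions are not replicates. The members and gene lists were chosen with earlier results of these data known. Genes named are those nearest the 10 strongest members and 8 strongest promoter members of each class by weaker-day −log10 q, list genes with a member within 10 kb, the fullest windows, the outer chromosomes and Kdm3a. The count of genome copies of 24-base words and the sets without chromosomes 12, 14 and 15 were chosen after seeing the data. Alternatives changed the merging distance, coverage, q limit, list length, distance to the other genotype, promoter and motif windows and gene distance.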

Additional observations from a re-analysis of the deposited data

Results flagged for a closer look

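The sex chromosomes were outside the comparison of chromosomes 1 to 19 but also held restricted regions. On chromosome X, 15 HY-restricted and 31 WT-restricted regions were found among 2132 merged regions. Over chromosomes 1 to 19 the shares were 0.899% HY-restricted and 0.298% WT-restricted. WT-restricted regions were thus the more frequent class on chromosome X, unlike on every autosome. On chromosome Y, 4 of 7 merged regions were HY-restricted and 0 were WT-restricted. The sample labels do not give the sex of the mice that gave the cells, so sex cannot be told apart from genotype here. The difference in class numbers was not tested, and no control library bears on it.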

How the results depend on the processing

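No paired analysis was possible because each group is 1 library, and leaving out a replicate could not be done for the same reason. HY-restricted regions numbered 392 with only peaks at a −log10 q of at least 5 in all lists, 121 with that limit on the members alone and 546 in lists of equal length. WT-restricted regions numbered 61 with the limit on the members alone, 496 in lists of equal length, 190 without a peak of the other genotype within 1000 bp and 267 with the limit in all lists. The HY over WT ratio ranged from 1.10 (lists of equal length) to 3.48. The promoter share of HY-restricted regions was 17.2% with at least 50% coverage, 7.38% without a nearby peak of the other genotype, 8.07% with peaks up to 500 bp apart merged and 22.5% in a window of 2000 bp upstream to 1000 bp downstream, where that of WT-restricted regions was 19.5%. The AP-1 share of HY-restricted regions was 22.3% at a −log10 q of at least 5, 24.9% in lists of equal length and 11.5% within 50 bp, and that of WT-restricted regions within 50 bp was 7.85%. The AP-1 difference kept its sign under each setting run, with an interval that included 0 under 4 of them (50% coverage, no peak within 1000 bp, members at a −log10 q of at least 5, and 50 bp), while C/EBP changed sign within 50 bp. Most regions in lists of equal length, or with the q limit in all lists, were not members of the main classes. Listed genes near a HY-restricted region were 2.70% within 10 kb, against 2.03% of all genes, and near a WT-restricted region 1.80%, against 0.695%. Same-genotype over crossed pairs ranged from 1.24 to 1.94. The lowest called pileup was 4 or 5, the absolute depth is unknown, and the part of depth in the restriction of weak members was not tested.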
